A study of Mus musculus with 71 samples.

Results

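The enteric nervous system is the network of neurons and glia in the gut wall, and 8 genes that mark it were followed here out of 24475 gene identifiers in each bulk expression table of a study of Btnl2-deficient mice. They were given by name as Ret, Elavl4, Uchl1, Vip, Nos1, Tac1, Sox10, and S100b. The rule that lists them uses no measured value, but it was written with earlier results of these data known. Bulk RNA-sequencing was done on whole small intestine of Btnl2-KO (n = 7 libraries) and WT (n = 7) mice and on whole colon of Btnl2-KO (n = 7) and WT (n = 6) mice, all C57BL/6 and labelled YNG, a term the labels do not explain and for which they give no age. In the Btnl2-KO mice, both copies of Btnl2, a butyrophilin-like gene of the gut epithelium, carry a LacZ reporter and a selection cassette that made a null allele in all cells, and the study describes its mice as cohoused. Libraries of intestinal epithelial cells (IECs, n = 16, 7-week-old mice) and of γδ intraepithelial lymphocytes (γδ IELs, n = 22, 10-week-old mice, sorted by surface markers, each a pool of 2 mice), from duodenum, jejunum, and ileum of both genotypes, served as a background without neurons. These ages are those of the labels. The sorting and pooling are taken from the study, which gives a slightly higher age for its γδ IEL mice. No treatment is given for any of these libraries, and the labels do not say whether each tissue library came from its own mouse, so the p-values measure the spread between libraries, which may be technical.

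Enteric neurons arise from neural crest cells that migrate into the gut under the guidance of glial cell line-derived neurotrophic factor acting through the receptor tyrosine kinase RET, and of endothelin 3 acting through its receptor. They settle in the myenteric plexus, between the muscle layers, and in the submucosal plexus, and control motility, secretion, and blood flow. Excitatory motor neurons release acetylcholine and tachykinins, inhibitory motor neurons release nitric oxide and vasoactive intestinal peptide (VIP), and glial cells that carry S100B and SOX10 ensheath both.

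Before the neural genes were read, the libraries were checked against their labels. Btnl2 had 485 to 1888 counts per library in WT and 9 to 32 in Btnl2-KO small intestine, and 15 to 51 in WT and 0 to 1 in Btnl2-KO colon. Hoxb13, a gene of the distal gut, lay between 111 and 430 CPM (counts scaled to the size of the library) in colon and at 0.474 CPM or less in small intestine. Within tissues the libraries were uneven in position along the gut: Gata4, a gene of proximal small intestine, reached 95.6 CPM in Btnl2-KO library 964939, 82.7 in WT library 964950, and 15.1 in WT library 964952, and was at 2.30 CPM or less in the other small intestine libraries. Car1, an enzyme of colonic epithelium, stood at 846 and 1624 CPM in WT small intestine libraries 964947 and 964948, and at 0.610 CPM or less in the other 12. In colon, Hoxd13 ranged from 4.68 to 79.1 CPM, and the exocrine pancreas gene Cpa1 reached 163 CPM in Btnl2-KO library 964929 and 108 CPM in WT library 964932. Btnl2-KO colon library 964926 had the lowest level of Myh11, the smooth muscle myosin heavy chain (477 CPM, against 881 to 2055 in the other Btnl2-KO and 1463 to 1915 in the WT colon libraries). Smooth muscle genes did not all follow Myh11. Tagln had 8020 counts in library 964926 and 6517 in Btnl2-KO colon library 964928, whereas Synpo2 had 441 and 1246. The mean log2 CPM of the smooth muscle genes, relative to the Btnl2-KO colon mean, was -0.593 in 964926 and -0.615 in 964928. Total counts per tissue library ranged from 13619309 to 21708721.

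All 8 genes had counts in each of the 27 tissue libraries, from 19 counts of S100b to 1001 of Vip, and all passed the filter on low counts. CPM values are set against library totals and not gene lengths, so levels were compared between genes as CPM per kilobase of annotated exon. On that scale the median level in WT small intestine was highest for Vip (9.58, range 8.78 to 14.5) and Uchl1 (9.06, 7.16 to 12.2), whose ranges overlapped. Tac1 (3.36, 2.22 to 4.69) and Ret (2.97, 2.27 to 3.32) followed, also with overlapping ranges. S100b (1.46), Elavl4 (1.37), Nos1 (1.30), and Sox10 (1.01) came last and could not be ordered beyond their spread. In WT colon the per-length level of Nos1 was 1.93 (1.42 to 2.37), and its median was above that of Ret (1.66, 1.27 to 2.22), although the ranges of these 2 genes overlapped there. The plot of CPM by library shows the values behind these medians.

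**Figure D1:**
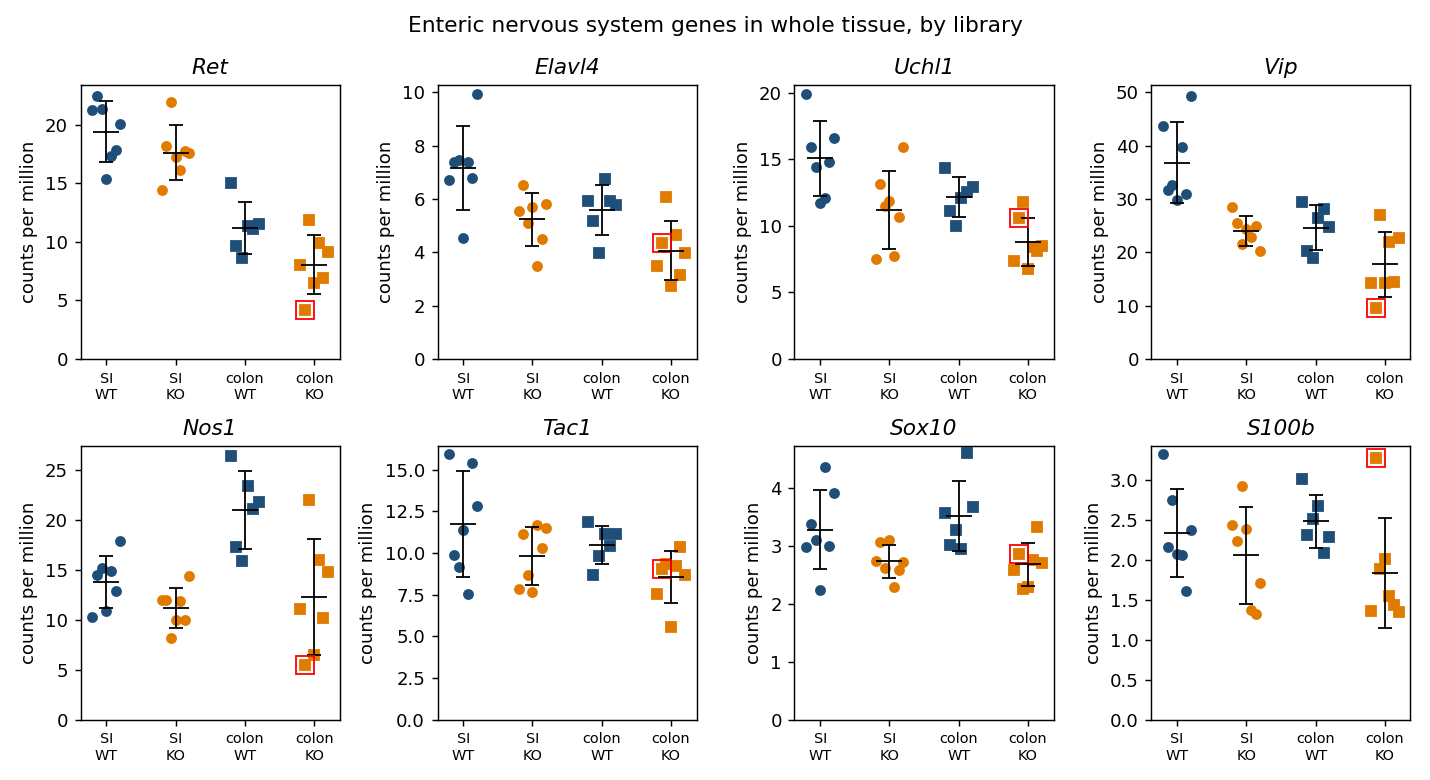
Level of each of the 8 genes (y axis, CPM on a linear axis from 0) in every whole-tissue library of WT (blue) and Btnl2-KO (orange) small intestine (SI, circles) and colon (squares), with bars for mean ± SD; the red frame marks Btnl2-KO colon library 964926. Ret is lower in colon in both genotypes without overlap, Nos1 is highest in WT colon, and the framed library is lowest for Ret, Vip, and Nos1 and highest for S100b within its group.

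The first question was how neural transcripts differ between the 2 organs. Genes were called when the quasi-likelihood test of edgeR gave a Benjamini-Hochberg adjusted p (FDR) below 0.05 and the fold change exceeded 1.5. Between WT colon and WT small intestine, 27.6% of 15162 genes tested were called, and 3 of the 8 members were: Ret and Vip were lower in colon, against 15.6% of all genes, and Nos1 was higher, against 12.0%. The members' median log2 fold change was -0.25, beside -0.02 over all genes. Between Btnl2-KO colon and Btnl2-KO small intestine, 30.2% of 14798 genes were called, and of the members only Ret, again lower in colon (15.7% of all genes were called lower). There the members' median was -0.28, beside 0.02 over all genes. The share of 3 in 8 lay above the first background and that of 1 in 8 below the second. With 8 members neither is a result about the set, so the members are described one by one. In whole tissue, fewer cells of a type and less RNA per cell cannot be told apart.

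Ret (Gene ID 19713, GRCm38 chr6:118151748-118197744) encodes the receptor through which the GDNF family keeps enteric neurons and their progenitors alive. Its level in WT small intestine was 15.3 CPM in the lowest library, 20.1 at the median, and 22.5 in the highest. In WT colon the corresponding values were 8.60, 11.2, and 15.0 CPM, so that all 6 colon libraries lay below all 7 small intestine libraries. Of all genes tested, 10.8% were lower in colon without overlap in this comparison. The log2 fold change was -0.81 (SE 0.13, FDR = 0.000155), a 1.75-fold difference. In Btnl2-KO mice, Ret lay between 14.4 and 22.0 CPM in small intestine (median 17.6) and between 4.20 and 11.9 in colon (median 8.01), again with no overlap, as for 13.6% of all genes in that direction. This difference was 2.19-fold (log2 fold change -1.13, SE 0.17, FDR = 5.24e-05). Ret was called in both genotypes under each of the 24 alternative settings and left-out libraries, and it was the only member of which this held.

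Elavl4 (Gene ID 15572, chr4:110203737-110351939) encodes the neuronal RNA-binding protein HuD, and Uchl1 (Gene ID 22223, chr5:66676121-66687234) encodes PGP9.5, a deubiquitinating enzyme that fills neuronal cell bodies and fibres. Elavl4 ranged from 4.53 to 9.92 CPM (median 7.39) in WT small intestine and from 3.98 to 6.77 (median 5.84) in WT colon. The ranges overlapped, and the log2 fold change of -0.38 (SE 0.16) missed the threshold (FDR = 0.0691). Uchl1 ranged from 11.7 to 19.9 CPM (median 14.8) in WT small intestine and from 10.0 to 14.4 (median 12.3) in WT colon. Its log2 fold change of -0.32 (SE 0.13) had an FDR of 0.0492 but stayed under the fold minimum. For both genes, all 6 WT colon libraries lay below the median of WT small intestine. In Btnl2-KO mice the same comparison gave -0.37 for Elavl4 (SE 0.18, FDR = 0.101) and -0.36 for Uchl1 (SE 0.18, FDR = 0.102).

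Vip, Nos1, and Tac1 represent the transmitter classes of gut motor neurons: Vip (Gene ID 22353, chr10:5639193-5647617) encodes an inhibitory and secretomotor neuropeptide, Nos1 (Gene ID 18125, chr5:117866839-117958840) the neuronal nitric oxide synthase, and Tac1 (Gene ID 21333, chr6:7555061-7562978) the precursor of substance P and neurokinin A. Vip and Nos1 both serve inhibitory motor neurons, and they differed in opposite directions between organs. Their upstream sequences are therefore shown, together with that of the other neuropeptide gene. Each line is the 250 bases before the transcript start that RefSeq gives on GRCm38.p6, 5′ to 3′ on the coding strand, which is the plus strand for all 3 genes. The GENCODE annotation gives 2 Vip transcripts. The start used in the Vip line lies inside the gene as annotated, so the end of that line overlaps the gene. Capitals mark TGACG on either strand (CGTCA in the lines, the core letters of a cyclic AMP response element) and TATAAA, the letters of a TATA box; the 2 motifs overlap nowhere in these lines.
Vip, chr10:5638968-5639217: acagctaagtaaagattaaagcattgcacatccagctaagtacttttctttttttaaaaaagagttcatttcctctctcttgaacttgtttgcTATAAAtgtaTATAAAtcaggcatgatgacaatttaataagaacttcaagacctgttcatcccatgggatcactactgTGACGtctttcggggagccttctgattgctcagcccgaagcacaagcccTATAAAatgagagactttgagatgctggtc
Nos1, chr5:117866589-117866838: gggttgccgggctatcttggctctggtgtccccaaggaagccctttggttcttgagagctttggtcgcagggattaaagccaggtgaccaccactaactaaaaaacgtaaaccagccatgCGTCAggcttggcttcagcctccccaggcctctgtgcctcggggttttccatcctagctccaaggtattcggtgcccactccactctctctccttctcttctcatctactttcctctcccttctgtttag
Tac1, chr6:7554811-7555060: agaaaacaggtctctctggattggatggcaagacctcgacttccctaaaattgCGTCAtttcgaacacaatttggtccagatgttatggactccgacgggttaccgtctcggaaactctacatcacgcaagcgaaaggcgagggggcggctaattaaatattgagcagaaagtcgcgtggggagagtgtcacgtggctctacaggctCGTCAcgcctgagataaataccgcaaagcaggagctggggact
The Vip window held TGACG 1 time and TATAAA 3 times, all on the forward strand. Nos1 had 1 TGACG and Tac1 had 2, all on the reverse strand, and neither held TATAAA. RefSeq windows were found for 6 members, Ret and Sox10 being without one. Elavl4 had 4 windows, some of them overlapping, of which 3 held TGACG, and the other 5 members had 1 each. Those of Uchl1 and S100b held neither motif. Over all 32851 windows of the table, 17.8% held TGACG and 12.4% TATAAA on either strand, and a match of these letters is a description of the sequence only.

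Vip ranged from 29.9 to 49.4 CPM (median 32.6) in WT small intestine and from 19.0 to 29.4 (median 25.5) in WT colon. The WT groups did not overlap, and the log2 fold change was -0.60 (SE 0.14, FDR = 0.00342), 1.51-fold lower in colon and just past the fold minimum. In Btnl2-KO mice, Vip ranged from 20.2 to 28.6 CPM (median 24.4) in small intestine and from 9.66 to 26.9 (median 14.5) in colon. These ranges overlapped, and the log2 fold change of -0.44 (SE 0.18) had an FDR of 0.0532. Nos1 went the other way in WT mice, from 10.3 to 17.9 CPM (median 14.5) in small intestine to 15.9 to 26.4 (median 21.5) in colon, with 4 of 6 colon libraries above every small intestine library. Its log2 fold change was 0.59 (SE 0.14, FDR = 0.00403), also just past the fold minimum. In Btnl2-KO mice Nos1 ranged from 8.17 to 14.4 CPM (median 11.9) in small intestine and from 5.46 to 22.0 (median 11.1) in colon, and the log2 fold change of 0.13 (SE 0.25) had an FDR of 0.698. Over 24 alternatives the WT fold changes of Vip and Nos1 kept an FDR of at most 0.0232 and 0.0316, but each lost its call in some of them because the fold change dropped under 1.5. Without WT small intestine library 964946 both did, and 1 member, Ret, was called.

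Within a library, the ratio of Nos1 to Vip CPM does not depend on how the libraries are scaled. This measure was chosen after the values of both genes were seen, so it is given as a description, with no test. The ratio lay between 0.236 and 0.466 (median 0.374) in WT small intestine and between 0.753 and 0.899 (median 0.871) in WT colon, with no overlap. The geometric mean ratio was 2.27-fold higher in colon (log2 difference 1.18, SE 0.13). In Btnl2-KO mice the ratio lay between 0.380 and 0.713 (median 0.421) in small intestine and between 0.453 and 0.817 (median 0.704) in colon. These ranges overlapped, and the geometric means differed 1.43-fold (log2 0.51, SE 0.16). Within colon the mean was lower in Btnl2-KO than in WT mice (log2 difference -0.37, SE 0.12), with overlapping ranges. In small intestine the ranges of the genotypes overlapped too (log2 difference 0.30, SE 0.17).

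Tac1 had close medians in both organs of WT mice and a wider range in small intestine. It ran from 7.55 to 15.9 CPM (median 11.4) in WT small intestine and from 8.67 to 11.8 (median 10.8) in WT colon (log2 fold change -0.18, 95% interval -0.53 to 0.17, FDR = 0.390). The Btnl2-KO libraries gave -0.21 (95% interval -0.51 to 0.10, FDR = 0.241).

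Sox10 (Gene ID 20665, chr15:79154913-79164490), a transcription factor of neural crest cells and enteric glia, and S100b (Gene ID 20203, chr10:76253836-76261319), a calcium-binding protein of glia, were the least abundant members. Sox10 ranged from 2.24 to 4.35 CPM (median 3.09) in WT small intestine and from 2.95 to 4.60 (median 3.42) in WT colon. S100b ranged from 1.61 to 3.32 CPM (median 2.16) in the first and from 2.08 to 3.01 (median 2.41) in the second. No organ difference was detectable for either gene in WT (log2 fold change 0.08, 95% interval -0.26 to 0.43 for Sox10; 0.07, -0.28 to 0.43 for S100b) or in Btnl2-KO mice (-0.03, -0.29 to 0.23; -0.18, -0.69 to 0.33). S100b rested on 19 to 64 counts per library, where counting error is a large part of the spread.

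**Figure D2:**
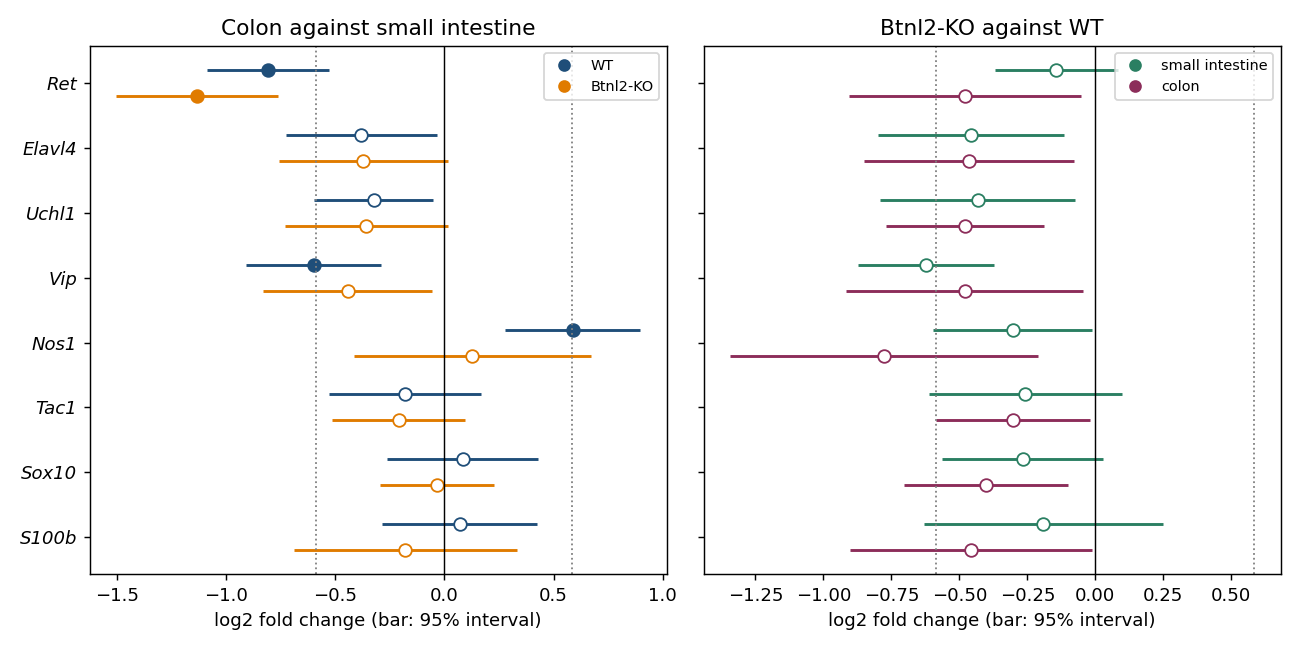
log2 fold changes (x axis) with 95% intervals (bars) for the 8 genes, colon against small intestine within WT (blue) and Btnl2-KO (orange) mice on the left, and Btnl2-KO against WT within small intestine (green) and colon (purple) on the right; filled points were called and dotted lines mark a 1.5-fold change. Ret, Vip, and Nos1 are filled on the left for WT, only Ret for Btnl2-KO, and no point is filled on the right although every point there lies below 0.

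Other genes of the enteric nervous system were read from lists. Of 18 pan-neuronal genes and identity factors, all tested in WT mice, 2 were called higher and 1 lower in colon (median log2 fold change -0.17), from Nefm, a neurofilament subunit (0.99, SE 0.20, FDR = 0.000901), to Tubb3, the neuronal beta tubulin (-0.64, SE 0.16, FDR = 0.00369). Of 17 neuropeptide, transmitter enzyme, and carrier genes, 13 were tested, 5 were called lower and 0 higher (median -0.62). The called ones ran from Slc5a7, the choline transporter of cholinergic neurons (-0.62, SE 0.21, FDR = 0.0288), to Npy, neuropeptide Y (-2.36, SE 0.33, FDR = 3.94e-05). Among 9 genes of GDNF and endothelin signalling, Ednrb, the endothelin receptor (-1.65, SE 0.13, FDR = 1.68e-07), and Edn3, its ligand (-2.46, SE 0.38, FDR = 0.000109), were called lower and 0 higher. Edn3 was also read in all IEC libraries (1.85 to 14.9 CPM), so it is not particular to the neural cells of the gut. Of 8 tested glial genes of 10, 0 were called with edgeR in WT mice and 0 had an unadjusted p below 0.05 (median 0.06). That list holds Erbb3 and Entpd2, which were also read in all IEC libraries (179 to 378 and 5.04 to 12.6 CPM). Receptors and effectors of enteric transmitters went both ways, with 3 of 13 called higher and 1 lower, from Tacr2, the neurokinin receptor of smooth muscle (1.34, SE 0.19, FDR = 4.98e-05), to Gucy1b1, a subunit of the nitric oxide receptor guanylate cyclase (-0.64, SE 0.12, FDR = 0.000414). Among these genes, Vipr1 was also read in all IEC libraries (108 to 183 CPM) and Vipr2 in all γδ IEL libraries (119 to 769 counts).

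In Btnl2-KO mice the same lists gave 6 lower and 1 higher of 15 tested neuronal genes (median -0.25), 7 lower and 0 higher of 13 transmitter genes (median -1.03), and 1 lower and 0 higher of 7 glial genes (median 0.06). Of 3 genes listed for the interstitial cells of Cajal, the pacemaker cells of gut muscle, Ano1 (2.90, SE 0.16) and Kit (0.59, SE 0.20) were called higher in WT colon and Etv1 was not called (-0.16, SE 0.17). Kit is not particular to these cells, since it was also read in all IEC and γδ IEL libraries. Ano1 was likewise read in all IEC libraries, at 1.61 to 6.51 CPM. Of 8 smooth muscle genes, only Synpo2 was called in WT mice (-0.72, SE 0.12), and the median was -0.16. The summed level of the smooth muscle list lay between 4042 and 10471 CPM in WT small intestine and between 4645 and 6465 in WT colon. The part of these cell types in the members' organ differences was not tested.

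The second question was whether loss of Btnl2 went with a change in neural transcripts. In small intestine, 0.0202% of 14866 genes were called by edgeR (3 genes, Btnl2 among them), and 0 of the 8 members. All 8 members had a negative log2 fold change (median -0.29, beside -0.03 over all genes), and 4 had an unadjusted p below 0.05 in that direction, beside 11.1% of all genes. DESeq2 called 1.19% of genes and 1 member, Vip.

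Vip was the member with the largest genotype difference in small intestine: all 7 Btnl2-KO libraries (20.2 to 28.6 CPM, median 24.4) lay below all 7 WT libraries (29.9 to 49.4, median 32.6), as did 0.249% of all genes tested. The log2 fold change was -0.62 (SE 0.12, 95% interval -0.87 to -0.37), 1.54-fold lower, with an FDR of 0.0942 by edgeR and 0.00146 by DESeq2. In one edgeR fit to all 27 tissue libraries, which called 1.45% of genes and 1 member, the FDR of Vip was 0.0316, and without the WT libraries with high Car1 it was 0.0291. The proximal libraries with high Gata4 held the highest Btnl2-KO value (964939, 28.6 CPM) and 49.4 (964952) and 39.8 CPM (964950) among the WT values. Without these 3 libraries the log2 fold change was -0.55, under the fold minimum, with an FDR of 0.253, and without all libraries that stood apart the FDR was 0.174. The part of position along the gut in this difference was not tested. Over its 24 alternatives the FDR ranged from 0.00146 to 0.253. Elavl4 was next, with 7 of 7 Btnl2-KO libraries below the WT median and a range of 3.48 to 6.53 CPM (median 5.56) against 4.53 to 9.92 in WT (log2 fold change -0.46, SE 0.16, FDR = 0.140). Uchl1 ranged from 7.54 to 15.9 CPM (median 11.5) in Btnl2-KO libraries, 4 of which lay below every WT library (-0.43, SE 0.17, FDR = 0.164). Nos1 gave -0.30 (SE 0.14, FDR = 0.204), and again 7 of 7 Btnl2-KO libraries were below the WT median. Ret (-0.14), Tac1 (-0.26), Sox10 (-0.27), and S100b (-0.19) had intervals that included 0.

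In colon, edgeR called 0.0269% of 14871 genes (4 genes) and 0 of the 8 members, whose FDR was 0.972 each. All 8 had a negative log2 fold change and an unadjusted p below 0.05, a share of 8 in 8 beside 2.70% of all genes in that direction. Their median was -0.47, beside 0.01 over all genes. DESeq2 called 0.0672% and limma-voom with quality weights 0.0471% of genes, and neither called a member. Some of the 8 genes are correlated across libraries (among them Ret, Vip, and Nos1, and Elavl4 with these and with Uchl1, as described below), so they are not 8 independent measurements.

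Nos1 had the largest fold change in colon, from 15.9 to 26.4 CPM (median 21.5) in WT to 5.46 to 22.0 (median 11.1) in Btnl2-KO libraries. Of the 7 Btnl2-KO libraries, 5 lay below every WT library (log2 fold change -0.78, SE 0.27, unadjusted p = 0.0107). Uchl1 had the smallest p, with 5 of 7 Btnl2-KO libraries below every WT library and 6.78 to 11.8 CPM (median 8.38) in Btnl2-KO against 10.0 to 14.4 in WT libraries (-0.48, SE 0.14, unadjusted p = 0.00314, rank 38 of 14871 genes). For both glial members, 6 of 7 Btnl2-KO libraries lay below every WT library. Sox10 ranged from 2.25 to 3.33 CPM in Btnl2-KO colon (-0.40, SE 0.14), and S100b from 1.35 to 3.28 (-0.46, SE 0.21). Ret (-0.48, SE 0.20), Vip (-0.48, SE 0.20), Elavl4 (-0.46, SE 0.18), and Tac1 (-0.30, SE 0.13) were closer to the WT range, with 2 to 4 Btnl2-KO libraries below every WT library. Without library 964926, all 8 members still had an unadjusted p below 0.05, and their median was -0.46.

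The genotype differences were compared between organs by an interaction term over all 27 libraries. It called 0.0193% of 15540 genes and 0 members, and 0 members had an unadjusted p below 0.05, beside 12.9% of all genes. The largest estimate was that of Nos1, -0.46 (95% interval -1.09 to 0.17, FDR = 0.518), so a difference between organs was neither shown nor bounded closely.

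**Figure D3:**
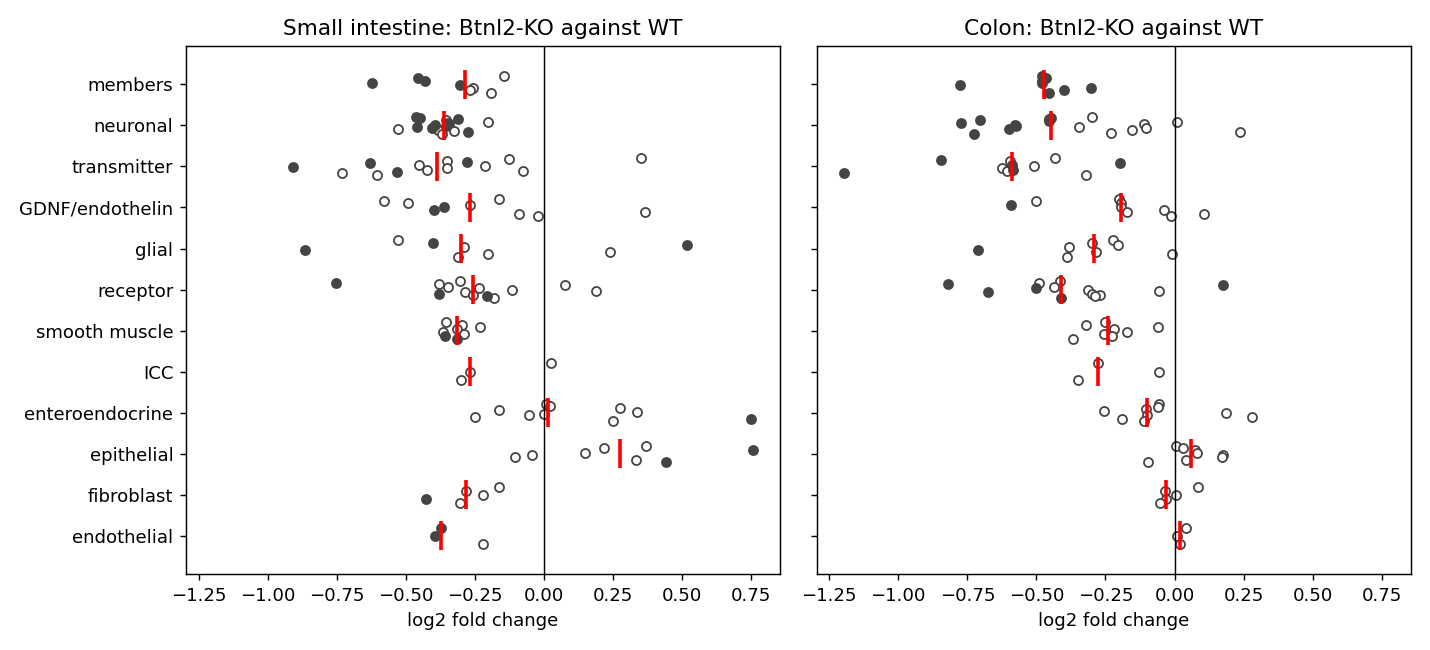
log2 fold change of Btnl2-KO against WT (x axis) for every tested gene of the members and of 11 other lists (rows), in small intestine on the left and colon on the right; each point is a gene, filled points had an unadjusted p below 0.05, and red bars are list medians. The members' medians are -0.29 and -0.47, the smooth muscle medians -0.31 and -0.24, and the epithelial medians 0.27 and 0.06.

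The neighbouring lists moved as follows, with 0 genes called by edgeR in either organ in each. Pan-neuronal genes had a median of -0.36 in small intestine, with 16 of 16 tested genes negative and 9 at an unadjusted p below 0.05, and of -0.45 in colon, with 15 of 17 negative and 9 at that level. Transmitter genes had medians of -0.39 (13 of 14 negative) and -0.59 (11 of 11 negative). Glial genes had medians of -0.30 (6 of 8 negative) and -0.29 (8 of 8 negative), in a list that includes Erbb3 and Entpd2, which epithelial libraries also held. In small intestine the smooth muscle genes were lower by a similar amount (median -0.31, 8 of 8 negative, 2 at an unadjusted p below 0.05), and epithelial genes were higher (median 0.27, 6 of 8 positive, 2 at that level). The summed epithelial level there was 7662 to 14341 CPM in WT and 11521 to 14975 in Btnl2-KO libraries, and the summed smooth muscle level 4042 to 10471 and 3267 to 8314. In colon the smooth muscle genes had a median of -0.24 (8 of 8 negative, 0 at an unadjusted p below 0.05), and their summed level was 4645 to 6465 CPM in WT and 2897 to 7441 in Btnl2-KO libraries. Genes of GDNF and endothelin signalling had medians of -0.27 and -0.20, transmitter receptors and effectors of -0.26 and -0.41, and interstitial cells of Cajal of -0.27 and -0.28 in small intestine and colon. The medians were -0.37 and 0.02 for endothelial, -0.28 and -0.03 for fibroblast, and 0.01 and -0.10 for enteroendocrine genes. Leukocyte genes had medians of -0.68 in small intestine, where 3 of 6 were lower at an unadjusted p below 0.05, and -0.18 in colon, and adipose genes had 0.48 and 0.23. The part of tissue makeup in the members' genotype differences was not tested.

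The libraries of a group were not equally alike. The coefficient of variation (SD over mean of CPM) of Nos1 was 18.5% in WT and 47.1% in Btnl2-KO colon, that of Vip 17.1% and 34.6%, that of Ret 19.6% and 31.1%, and that of S100b 13.2% and 37.3%. In small intestine the values were 19.1% and 18.0% for Nos1, 20.5% and 11.5% for Vip, 13.4% and 13.1% for Ret, and 23.7% and 29.2% for S100b. Sox10 was steadier in Btnl2-KO libraries of both organs (10.5% and 13.7%) than in WT libraries (20.9% and 17.3%), but without WT library 964936 the WT colon value was 9.78%, and the differences in spread were not tested. Library 964926 held the lowest Ret (4.20 CPM), Vip (9.66), and Nos1 (5.46) of the Btnl2-KO colon group and the highest S100b (3.28), and without it the coefficient for S100b was 17.8%. Its Elavl4, Uchl1, Tac1, and Sox10 lay within the range of the other 6 libraries of the group. Library 964927 held the highest Ret, Elavl4, Uchl1, Vip, and Nos1 of the group.

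Since the myenteric plexus lies between muscle layers, the level of each member was set against the mean log2 CPM of 8 smooth muscle genes, both relative to their genotype's mean within an organ. In colon (n = 13 libraries), Nos1 followed muscle most closely (Pearson r = 0.83, permutation p = 0.00051; Spearman rho = 0.84, p = 0.00075). Over the 16 relations computed, the adjusted permutation p was 0.00816 for r and 0.0120 for rho. Vip (r = 0.76, permutation p = 0.00244, adjusted 0.0159; rho = 0.71, p = 0.00842, adjusted 0.0449) and Ret (r = 0.74, permutation p = 0.00298, adjusted 0.0159; rho = 0.74, p = 0.00563, adjusted 0.0449) did so too. Leaving out the 2 libraries farthest from the median muscle level gave r of 0.84, 0.71, and 0.75. Without library 964926, r was 0.78 for Nos1 (adjusted permutation p = 0.0170), 0.69 for Vip (0.0729), and 0.67 for Ret (0.0729), so the last 2 no longer passed. Muscle level, relative to its group mean, spanned -0.27 to 0.22 in the WT and -0.61 to 0.75 in the Btnl2-KO colon libraries. The pooled relations therefore drew mostly on Btnl2-KO libraries, and they were not tested within each genotype. Permutation mixed libraries of both genotypes despite this unequal spread, so its p-values are approximate. Both levels were also scaled by the same library size. The other members had r in colon of 0.49 (Elavl4), 0.42 (Tac1), 0.22 (Uchl1), -0.19 (Sox10), and -0.37 (S100b), none past the threshold by permutation. In small intestine (n = 14), 0 of 8 relations passed. The highest r there was that of Uchl1 (r = 0.61, permutation p = 0.0182, adjusted 0.0729; rho = 0.56, p = 0.0397, adjusted 0.127), and r was 0.20 without WT library 964946 and Btnl2-KO library 964945, so it rested on these. By rank, Tac1 was higher (rho = 0.61, permutation p = 0.0217, adjusted 0.0867; r = 0.53, p = 0.0537, adjusted 0.172). Without Btnl2-KO library 964943, r of Uchl1 was 0.74 (adjusted permutation p = 0.0198).

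**Figure D4:**
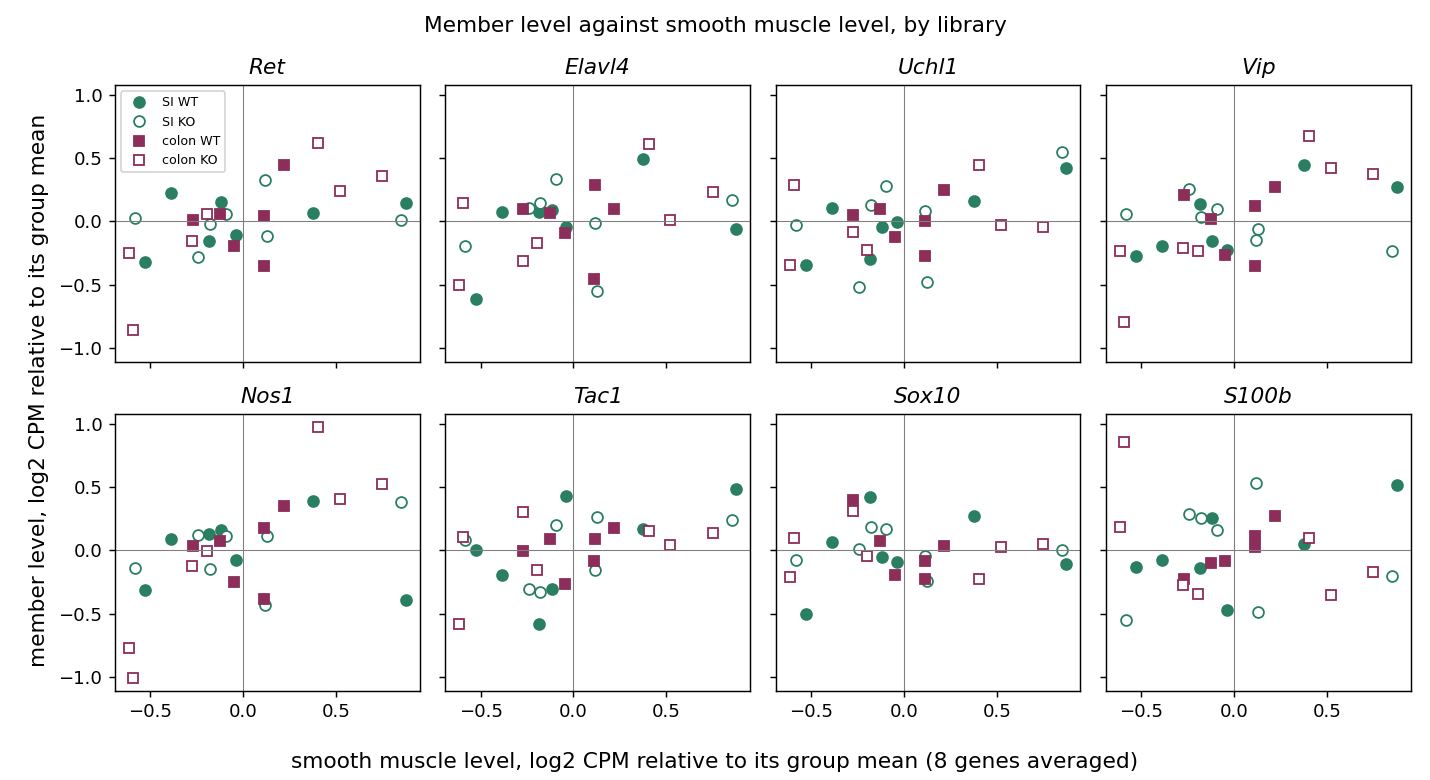
Level of each member (y axis) against the mean level of 8 smooth muscle genes (x axis), both as log2 CPM relative to the mean of the library's own group, for small intestine (SI, green circles) and colon (purple squares) of WT (filled) and Btnl2-KO (open) mice. Nos1, Vip, and Ret rise with muscle level across the colon libraries of both genotypes together (r = 0.83, 0.76, and 0.74), while Sox10 and S100b do not. The WT colon libraries cover a narrower range of muscle level than the Btnl2-KO ones.

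Across all 27 libraries, centred on their group means, some members were more closely correlated than others, and the values are given here as descriptions. The Pearson correlations among Ret, Vip, and Nos1 were 0.72, 0.73, and 0.76, and that of Elavl4 with Uchl1 was 0.65. Elavl4 also had r of 0.58 with Nos1, 0.54 with Vip, and 0.46 with Ret, and Uchl1 had 0.49 with Tac1. S100b had r of -0.39 with Nos1, -0.14 with Ret, and 0.02 with Sox10, the other glial member. Among 15540 genes, those most like Nos1 were Fgf13 (r = 0.90), Chrna3 (0.89), and Spock2 (0.88), and those most like Vip were Htr2b (0.85), Sphkap (0.84), and Dbh (0.81). Elavl4 was most like Ap3b2 (0.83), Nrxn2 (0.82), and Syt1 (0.82), Uchl1 like Mtus2 (0.83), Nsg1 (0.81), and Prph (0.78), and Ret like Aoc3 (0.87), Gpc3 (0.86), and Kif1a (0.86). S100b was most like Uqcc3 (0.83), ND3 (0.82), and Tmem219 (0.81), while for Tac1 (Fundc2, 0.70) and Sox10 (Sap25, 0.73) the best correlations were weaker. All points share library preparation and depth.

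The last question was which members are particular to whole tissue. The IEC and γδ IEL tables were scaled apart from the tissue table, so levels across them are set side by side without a test. Vip had 0 counts in all 16 IEC and all 22 γδ IEL libraries, where 3 counts, the limit that a count of 0 allows, correspond to at most 0.237 CPM and 0.236 CPM. In IECs, Elavl4 reached at most 0.175 CPM, Uchl1 0.126, Nos1 0.146, Sox10 0.0550, and S100b 0.158, and none of these had 10 counts in any library. In γδ IELs, Elavl4 had 1 count in all, Nos1 2, Sox10 2, and S100b 11, and Uchl1 lay between 0.0717 and 0.864 CPM with at most 14 counts in a library. Summed over all 16 IEC libraries, these 5 genes had 2 (Sox10) to 36 (Elavl4) counts.

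Ret and Tac1 differed from the other 6 members, since both were read in epithelial and lymphocyte libraries. In IECs, Tac1 lay between 3.74 and 13.3 CPM, and the tissue range was 5.58 to 15.9. Chga, a granule protein of enteroendocrine cells, lay between 24.9 and 80.7 CPM in the same libraries, and the neuronal gene Syt1 at 0.237 CPM or less. Ret lay between 1.21 and 6.44 CPM in IECs and between 3.87 and 21.0 in γδ IELs, beside 4.20 to 22.5 in tissue. The share of epithelial and lymphocyte Ret and Tac1 in the whole-tissue levels was not tested.

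By segment, Ret in WT IECs was 1.94, 2.08, and 2.57 CPM in the 3 duodenal libraries, 3.38, 3.96, and 4.10 in the 3 jejunal ones, and 5.80 and 6.44 in the 2 ileal ones. The values were lowest in duodenum and highest in ileum, in groups of 2 or 3 libraries. Tac1 gave 5.15 to 5.36 CPM in WT duodenum, 3.74 to 8.38 in WT jejunum, and 8.85 and 10.4 in WT ileum. The Btnl2-KO IEC libraries held 3 that went against their labels: library 1003459, labelled duodenum, had 220 CPM of the ileal bile acid-binding protein gene Fabp6 and 5.45 CPM of Btnl2, library 1003474, labelled jejunum, had 484 CPM of Fabp6 and 19.5 CPM of Btnl2, and library 1003481, labelled ileum, had 0.231 CPM of Fabp6. Ret was 6.03, 5.92, and 1.21 CPM and Tac1 11.3, 13.3, and 6.34 CPM in these 3. Over all IEC libraries whatever their label, Ret was 5.37 to 6.44 CPM in the 6 with Fabp6 above 200 CPM and 1.21 to 4.10 CPM in the other 10. Without the 3 libraries, the Btnl2-KO values of Ret were 1.98 CPM in duodenum, 3.43 and 2.84 in jejunum, and 5.50 and 5.37 in ileum.

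In WT γδ IELs, Ret was 5.47 to 7.27 CPM in duodenum (n = 4), 7.71 to 20.2 in jejunum (n = 4), and 10.6 to 12.6 in ileum (n = 4). Btnl2-KO libraries gave 3.87 to 6.83 CPM (n = 3), 7.18 to 15.0 (n = 4), and 14.1 to 21.0 (n = 3). Epcam, an epithelial gene, was 175 to 386 CPM in the ileal Btnl2-KO libraries and 344 to 957 in the ileal WT ones, and the part of epithelial RNA in the ileal Ret levels was not tested. Tac1 in γδ IELs ranged from 0 to 12.97 CPM. These libraries held epithelial transcripts as well, with Epcam at 123 to 957 CPM. The 2 libraries lowest in Epcam, Btnl2-KO jejunum 1105592 (123 CPM) and Btnl2-KO ileum 1105585 (175 CPM), had Chga at 0.0383 and 0 CPM and Ret at 15.0 and 21.0 CPM, while Tac1 was 0 and 4.41 CPM.

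**Figure D5:**
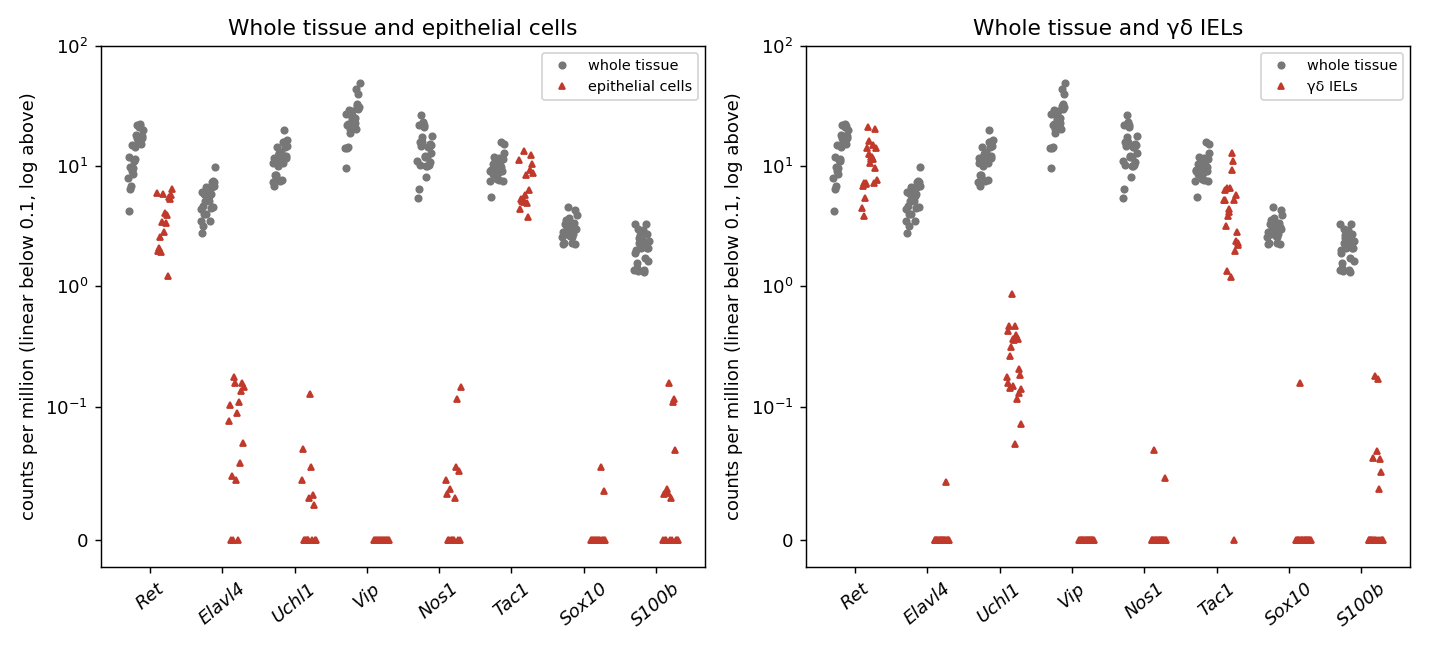
Level of each member (y axis, CPM, linear below 0.1 and logarithmic above) in the 27 whole-tissue libraries (grey circles), beside 16 IEC libraries on the left and 22 γδ IEL libraries on the right (red triangles); each point is a library. Ret and Tac1 overlap the tissue range in both panels, Vip is at 0 in every IEC and γδ IEL library, and the other 5 genes stay below 1 CPM there.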

How the data were processed

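Expression was measured by bulk RNA-sequencing of 27 whole-tissue, 16 IEC, and 22 γδ IEL samples. The labels give a stranded mRNA kit for all of them, whereas the study's bulk RNA-sequencing methods describe a low-input amplification kit. The deposited tables hold expected counts per gene, not normalised, on GRCm38 per the labels. The study's methods, which do not separate the kinds of sample, state that the authors mapped reads in ArrayStudio and counted sense-strand exon reads by RSEM. Of the values, 17.2% (tissue), 14.9% (IEC), and 5.00% (γδ IEL) were not whole, and all were rounded. Of 24475 identifiers, 100 had no gene name. They were kept in library sizes and in tests and held 0.253% to 9.24% of a library's counts. The tables held 1 column of no sample, which was not used, and single-cell files were not analysed here.

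Totals ranged from 13619309 to 21708721 counts per tissue library, 15397757 to 38258472 per IEC library, and 13444958 to 30029485 per γδ IEL library. Counting floors cover counting error only. CPM levels were scaled by TMM factors computed within each table. In the edgeR fits, TMM factors were computed over the libraries fitted, from the genes that passed the filter. A gene was tested if the number of libraries holding 10 or more of its counts reached the size of the smaller group. The quasi-likelihood method of edgeR 4.0.16 (R 4.3.3) was used, with Benjamini-Hochberg adjustment over all genes tested. Calls needed FDR below 0.05 and a fold change above 1.5 (interaction: FDR only). DESeq2 1.42.0, limma 3.58.1 (voom with quality weights), other size factors and filters, a joint fit, and leaving out each library were alternatives. Permutation tests used scipy 1.17.1. The model was tested on simulated counts with known changes. None of 78 replicate pairs agreed within sampling noise (lowest chi-square per degree of freedom 5.08). The members and the gene lists were chosen with earlier results of these data known. Beyond the 8 members, the genes named are the extreme called genes of each list, the 3 genes most correlated with each member, and markers that bear on a result, which were chosen after their values were seen.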

Additional observations from a re-analysis of the deposited data

Results flagged for a closer look

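Single libraries far from the rest were sought in 40 sets of values, each 1 member in 1 group of 4 to 10 libraries. In 2 sets a library stood apart, about the share that chance alone would mark (1 in 20). S100b was at 3.28 CPM in Btnl2-KO colon library 964926, while the other 6 libraries of that group lay between 1.35 and 2.02 CPM. Ret was at 5.47 CPM in WT duodenal γδ IEL library 1105580, while the other 3 lay between 7.13 and 7.27 CPM.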

How the results depend on the processing

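Of the members' log2 fold changes, all 176 alternative values in the colon genotype comparison and 189 of 192 in the small intestine one kept their direction and side of the thresholds. In small intestine the number of members called was 0, but it was 1 (Vip) under DESeq2, 1 in the fit to all 27 libraries, and 1 without the WT libraries with high Car1, where 324 genes in all were called instead of 3. Without the proximal libraries or all that stood apart it was 0, with 4 and 3 genes called. These exclusions were chosen after seeing the data. Between WT organs it was 3, and from 1 to 3 when libraries were left out, being 1 (Ret) without WT small intestine library 964946. In 16 of 192 values there, Vip or Nos1 fell under the fold minimum.

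Estimates near 0 changed sign. When libraries were left out, the WT organ difference ran from -0.00973 to 0.17 for Sox10 and from -0.00118 to 0.17 for S100b, and the Btnl2-KO one from -0.0728 to 0.24 for Nos1 and from -0.0908 to 0.00555 for Sox10. The interaction then ran from -0.15 to 0.0719 for Elavl4, from -0.15 to 0.0733 for Uchl1, from -0.0127 to 0.25 for Vip, and from -0.15 to 0.0522 for Tac1. For Elavl4 it was -0.000615 under DESeq2, -0.22 under limma-voom, -0.000897 with RLE factors, -0.00303 without a filter, -0.0993 without proximal, -0.0547 without Car1-high, -0.0439 without pancreatic, and -0.28 without all libraries that stood apart. For Vip it was -0.0079 under limma-voom, and for Tac1 it was 0.0310 without Car1-high libraries and 0.20 without all that stood apart. Against muscle, leaving out libraries gave r from -0.12 to 0.60 for Nos1 and -0.19 to 0.23 for Sox10 in small intestine, and -0.00516 to 0.48 for Uchl1 in colon. The cause of these shifts was not tested. No paired analysis was possible because library numbers are not shared between groups. S100b, at 19 to 64 counts per library, was the member most limited by depth.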
